A study of Mus musculus with 8 samples.

Results

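Ribosome footprints of Mettl5 knockout (KO) B16 cells were compared with those of wild-type (WT) B16 cells. B16 is a mouse melanoma line that makes pigment, and Mettl5 had been targeted with CRISPR/Cas9 in the cells labelled KO. Each genotype had 2 footprint libraries. All 10453 genes of the deposited table entered the test, and the 5348 genes with a mean of at least 200 normalized reads over the 4 footprint libraries, called well-covered here, are described. The other 5105 genes had a lower mean. All cells of both genotypes had been given cycloheximide, which stalls elongating ribosomes on the mRNA, before lysis in a polysome buffer. The labels describe the RNA of all libraries both as polyadenylated and as depleted of ribosomal RNA, and which of these the input RNA was is not settled by them. Input values of mRNAs with no or short poly(A) tails, such as those of histones and mitochondria, are uncertain for that reason. Whether the KO cells were 1 clone or a pool, and whether libraries of a genotype came from separately grown cultures, is not stated in the sources used here. The p-values therefore measure the spread between libraries only, and that spread may be technical.

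A ribosome covers a short stretch of mRNA and protects it from nuclease, and sequencing the protected pieces counts the ribosomes on each gene's mRNA. Whether the values used here count the coding sequence alone is not given in the sources used here. A footprint level moves with the amount of mRNA, with how often ribosomes start on it and with how long they stay. METTL5 is a methyltransferase that, with TRMT112, places N6-methyladenosine on the 18S rRNA of the small ribosomal subunit, near the decoding site. The series title ties it to stress response genes. In the integrated stress response, translation of the ATF4 mRNA is raised while general initiation is lowered, and ATF4 then drives genes of amino acid supply.

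The footprint libraries held 2344656 and 2279456 recovered reads in KO, and 3098930 and 2862517 in WT. A value of 200 stood for 70.0 and 67.7 reads in the KO libraries, and for 94.4 and 87.0 reads in the WT libraries. No well-covered gene had fewer than 46 reads in any library. All 7 melanocyte markers (Tyr, Tyrp1, Dct, Mlana, Pmel, Sox10 and Mitf) were well-covered, whereas no listed marker of fibroblasts, leukocytes, epithelium or endothelium was. The 5 fibroblast markers in the table summed to 297 and 310.2 normalized reads in KO against 278 and 274 in WT. Most of that sum was Pdgfrb, with 197 and 248 in KO against 157 and 140.2 in WT (adjusted p = 0.0379), while Col1a1, Col1a2, Pdgfra and Postn had lower means in KO and did not pass. The part of such cells in any result was not tested. The leukocyte marker Cd68 had 2.86 and 5.91 in KO against 8.48 and 9.20 in WT, and Cdh1 and Vwf together had 17.1 and 26.6 in KO against 17.0 and 11.5 in WT. Mettl5 itself (chr2:69871195-69886634, GRCm38) was not well-covered, with 109 and 112 in KO libraries, against 91.1 and 113 in WT libraries (log2 fold change 0.12 ± 0.23 (SE), adjusted p = 0.812, limma). Without WT replicate 1 its difference turned to -0.029. Its input RNA was lower, with 75.8 and 95.7 normalized reads in KO against 114 and 111 in WT (log2 fold change -0.40, adjusted p = 0.00162). Reads summed per gene cannot show a small insertion or deletion, so these values do not check the edit.

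Footprints of many well-covered genes differed between the genotypes by small amounts. With limma and Benjamini-Hochberg adjustment over all tested genes, 582 well-covered genes (10.9%) were higher and 545 (10.2%) were lower in KO. Over all 10453 tested genes, 659 (6.3%) were higher and 650 (6.22%) lower. Below the mean of 200, 182 of 5105 genes (3.57%) passed, 77 (1.51%) higher and 105 (2.06%) lower. The KO and WT libraries did not overlap in 3291 well-covered genes (61.5%), among them all 1127 that passed. Over all 10453 tested genes they did not overlap in 5505 (52.7%), so a lack of overlap was common and is no call by itself. Values per library are given throughout as normalized footprint reads. The median absolute log2 fold change of the called well-covered genes was 0.35, against 0.97 in called genes under the mean of 200. A difference of more than 2-fold was called in only 6 genes with higher and 9 genes with lower footprints. Beyond 1.5-fold there were 46 and 83. The values had been normalized between libraries before deposit, so a change shared by all genes may not show in them. Higher and lower are therefore relative to the other genes, and a median near 0 does not measure total translation. The median log2 fold change was 0.011 over well-covered genes, with quartiles at -0.13 and 0.15. For comparison, the median absolute difference between libraries of the same genotype was 0.094 in KO and 0.084 in WT on the log2 scale.

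The test used a variance trend across genes, and its number of calls rested on it. Without the trend, limma called 0 genes after adjustment, although 907 well-covered genes (1807 of all genes) had an unadjusted p under 0.05. Leaving out WT replicate 1 left 391 higher and 343 lower well-covered genes, and leaving out WT replicate 2 left 385 and 329. On the recovered reads edgeR called 624 higher and 618 lower well-covered genes, and DESeq2 called 236 and 224. Of the 1127 genes called by limma, edgeR called 1125 and DESeq2 460, in each case all in the same direction.

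**Figure D1:**
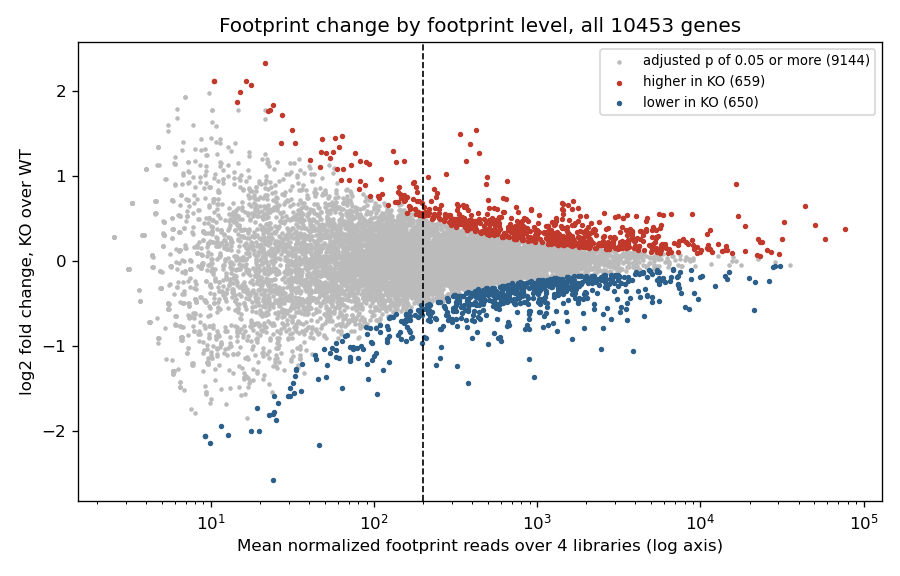
Log2 fold change of footprints (KO over WT, y axis) against the mean normalized footprint reads of each gene (x axis, log scale). Each point is a gene, coloured by call, and the vertical line marks the mean of 200. Right of the line 582 genes were higher and 545 lower in KO, most within 1.5-fold, and large differences at the left rested on few reads.

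The threshold itself was not a boundary in the data. Just inside it lay BC030867, with 223 and 245 in KO libraries, against 174 and 159 in WT libraries, and Dcaf6, with 237 and 168 in KO libraries, against 195 and 200 in WT libraries. Just outside lay Traf6, with 226 and 177 in KO libraries, against 201 and 195 in WT libraries, and Pank1, with 197 and 216 in KO libraries, against 178 and 209 in WT libraries. There were 224 well-covered genes in which the mean of 1 genotype was under 200, of which 50 were called, and 208 genes left outside in which the mean of 1 genotype reached 200.

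The largest increases among well-covered genes were in histone H2B genes, ribosomal protein genes and a handful of other genes. Footprints of the H2B gene Hist1h2bh (chr13:23542923-23543444) were 583 and 679 in KO libraries, against 225 and 207 in WT libraries (log2 fold change 1.54 ± 0.12 (SE), adjusted p = 1.04e-09). Hist1h2bk (chr13:22035821-22036320) had 531 and 467 in KO libraries, against 182 and 170.1 in WT libraries (log2 fold change 1.49 ± 0.14 (SE), adjusted p = 1.01e-08). For both genes the KO libraries lay more than 2-fold above both WT libraries. Cdh13 (chr8:118140017-119324929), which encodes the membrane-anchored T-cadherin, had 597 and 523 in KO libraries, against 218 and 209 in WT libraries (log2 fold change 1.38 ± 0.13 (SE), adjusted p = 9.78e-09). Its input RNA was also higher, by 1.29 on the log2 scale. Nr4a3 (chr4:48045078-48086447), an orphan nuclear receptor of the immediate early kind, had 397 and 349 in KO libraries, against 176 and 189 in WT libraries (log2 fold change 1.03 ± 0.15 (SE), adjusted p = 1.43e-05), again with higher input (0.92). The other large increases were those of Rps10, Rps7, Rbl2, Rpl41, Hist1h2bj, Mt1, Hist1h2bb and Nop10, at log2 fold changes between 0.85 and 1.27.

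The largest decrease was that of Rpl6 (chr5:121204501-121209241), a protein of the large ribosomal subunit, with 206 and 198 in KO libraries, against 521 and 570.1 in WT libraries (log2 fold change -1.43 ± 0.13 (SE), adjusted p = 6.39e-09). Ckb (chr12:111669355-111672338), the brain-type creatine kinase, had 517 and 555 in KO libraries, against 1352 and 1402 in WT libraries (log2 fold change -1.36 ± 0.079 (SE), adjusted p = 2e-12). Tomm22 (chr15:79670868-79672862), a receptor of the mitochondrial import pore, had 171 and 209.7 in KO libraries, against 388 and 517 in WT libraries (log2 fold change -1.24 ± 0.15 (SE), adjusted p = 1.67e-06). In these 3 genes the lowest WT library was well above the highest KO library. In input RNA, Ckb was lower (-0.999 on the log2 scale), Tomm22 did not pass (0.0057, adjusted p = 0.925), and Rpl6 was higher by 0.16. Cyb5a (chr18:84851338-84879871), the membrane cytochrome b5 that donates electrons to lipid desaturases, had 2528 and 2461 in KO libraries, against 5197 and 5191 in WT libraries (log2 fold change -1.06 ± 0.039 (SE), adjusted p = 1.7e-16). Ran (chr5:129020156-129024322), the GTPase that gives nuclear transport its direction, had 1628 and 1586 in KO libraries, against 3340.2 and 3239 in WT libraries (log2 fold change -1.03 ± 0.048 (SE), adjusted p = 2.8e-14). Ran input RNA did not pass (-0.0097, adjusted p = 0.674). Chac1 (-1.23) is described with the stress response genes below. The calpain-like gene Capn6 (-1.15), Mxra7 (-1.14), Kctd2 (-1.02) and the AAA+ ATPase gene Ruvbl1 (-0.97) were also among the 12 lowest log2 fold changes. Rpl7a (-0.93) and the transcriptional coactivator gene Sub1 (-0.92) completed them.

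**Figure D2:**
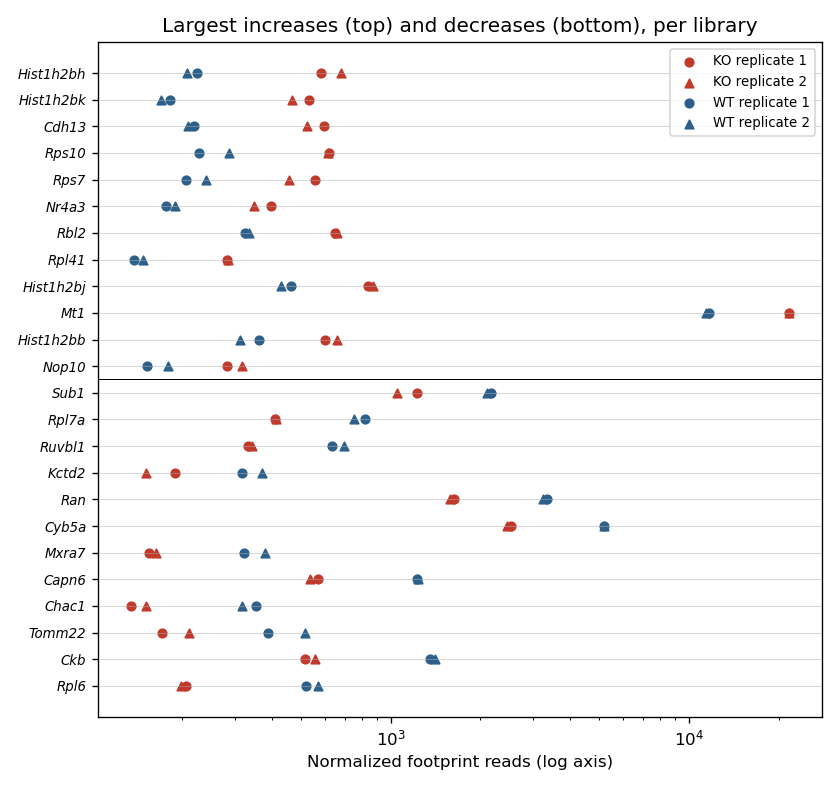
Normalized footprint reads per library (x axis, log scale) of the 12 well-covered genes with the highest and the 12 with the lowest log2 fold change (y axis, 1 row a gene). Each point is a library, KO in red and WT in blue, with circles for replicate 1 and triangles for replicate 2. The rows were drawn from called genes whose KO and WT points do not overlap, with predicted genes left out. In Rps10, for example, KO libraries had 623 and 614 against 227 and 287 in WT.

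The genes with the most footprint reads, with no correction for length, were Gpnmb, Dct, Pmel, Tyrp1, Vim and Calr. Of these 6, Tyrp1, an enzyme of eumelanin synthesis, had 53659 and 53754 in KO libraries, against 34258 and 34400 in WT libraries (log2 fold change 0.65 ± 0.013 (SE), adjusted p = 1e-21). Pmel, which forms the fibrils on which melanin is laid down, had 56707 and 58758 in KO libraries, against 43499 and 42665 in WT libraries (log2 fold change 0.42 ± 0.015 (SE), adjusted p = 7.73e-17). Gpnmb, a melanosomal glycoprotein, had 86802 and 88031 in KO libraries, against 67315 and 67441 in WT libraries (log2 fold change 0.38 ± 0.011 (SE), adjusted p = 1.06e-18). Footprints of all 3 genes rose in KO. Calr, a calcium-binding chaperone of the endoplasmic reticulum (ER), had 37294 and 38010 in KO libraries, against 27061 and 27687 in WT libraries (log2 fold change 0.46 ± 0.016 (SE), adjusted p = 7.51e-17). Dct, which acts between tyrosinase and Tyrp1 in melanin synthesis, also rose (0.26), while the intermediate filament gene Vim had 34331 and 35387 in KO libraries, against 35757 and 36255 in WT libraries (-0.047) and did not pass with limma (adjusted p = 0.0555). That small difference passed with edgeR (adjusted p = 0.000188), after median centring (0.00852) and without KO replicate 2 (0.00208). Because quantile normalization gives the genes of the top ranks 1 common value in every library, it set the differences of Gpnmb, Dct and Pmel to 0, and it gave 0.29 for Tyrp1 and -0.41 for Vim (adjusted p = 3.6e-06).

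A stretch of chromosome 8 held many of the higher footprints. The stretch was delimited after values had been seen, from the input RNA alone: genes were put in order along each chromosome, the median log2 fold change of input was taken over 7 neighbouring well-covered genes, and the longest run above 0.25 was kept. It held 70 well-covered genes, from Scoc to Got2 (chr8:83434492-95888401, GRCm38). The next longest of 6 such runs held 8 genes, on chromosome 13. Footprints of 51 of the 70 genes were higher in KO and those of 0 were lower, against 10.9% higher among all well-covered genes. Their median log2 fold change was 0.44, within a range of -0.15 to 0.99, and it was positive in 68 of 70. In 64 of the 70 genes both KO libraries lay above both WT libraries, against 32.6% of all well-covered genes. In input RNA, which chose the stretch, the median was 0.47. Footprint libraries were independent of that choice but not of the cells, which may be shared.

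On either side calls were few. Among the 20 well-covered genes before the stretch (Pgls to Elmod2), 0 were higher and 2 lower, with a median of 0.080. Of the 20 genes after it (Cmtm3 to Sntb2), 1 was higher and 1 lower, with a median of -0.055. Both KO libraries lay above both WT libraries in 10 of the 20 genes before and 6 of the 20 after, against 32.6% of all well-covered genes. Cmtm3 starts at chr8:104339383, and no well-covered gene was placed between it and Got2, so the right edge is not located closely. On the rest of chromosome 8, 17 of 227 well-covered genes were higher and 26 lower, with a median of -0.0090. The 70 genes took 2.48% and 2.47% of all well-covered footprint reads in the KO libraries, and 1.78% and 1.78% in the WT libraries. Without Calr, the gene with the most reads, those shares were 1.89% and 1.87% in KO and 1.34% and 1.33% in WT. The count of higher genes in the stretch was 39 without WT replicate 1, 41 without WT replicate 2, 53 with edgeR, 34 with DESeq2 and 32 after quantile normalization. The count of lower genes was 0 each time, and also 0 at an unadjusted limma p under 0.05. The stretch made up 1.31% of well-covered genes and 8.76% of those called higher. Left out, it leaves 531 higher and 545 lower well-covered genes. All libraries were made from RNA, so DNA copy number was not measured here, and its part in the result was not tested.

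The genes of the stretch have unrelated jobs. Mt1 (chr8:94178883-94180327), a metallothionein that binds zinc and copper, had 21668 and 21693 in KO libraries, against 11653 and 11456 in WT libraries (log2 fold change 0.91 ± 0.021 (SE), adjusted p = 4.58e-21), and its neighbour Mt2 had 723 and 603 in KO libraries, against 430.2 and 423 in WT libraries. Rbl2 (chr8:91070057-91123844), the pocket protein p130 that represses cell cycle genes, had 648 and 662 in KO libraries, against 324 and 336 in WT libraries (log2 fold change 0.99 ± 0.11 (SE), adjusted p = 1.46e-07). In each of these genes both KO libraries lay well above both WT libraries. Also higher were the transcriptional regulator Nacc1 (0.80), the peroxiredoxin Prdx2 (0.70), the nuclear import receptor Tnpo2 (0.69), the lysosomal mannosidase Man2b1 (0.67), the phenylalanyl-tRNA synthetase subunit Farsa (0.62), the complex I subunit Ndufb7 (0.62), the J-domain protein Dnajb1 (0.60) and the CCR4-NOT scaffold Cnot1 (0.54). Members that did not pass included Gipc1, with 1443 and 1400.1 in KO against 1454 and 1437 in WT, and Dhps, which makes hypusine on eIF5A, with 403 and 357 in KO against 415 and 428 in WT. Gpt2, an alanine aminotransferase, had 594 and 558 in KO against 538 and 517 in WT, a log2 fold change of 0.13 (adjusted p = 0.468) beside 1.25 in input RNA. Herpud1, of ER-associated degradation, had 0.21 in footprints and 1.16 in input, and its footprint call was lost without any 1 of the 4 libraries (adjusted p between 0.0515 and 0.211).

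**Figure D3:**
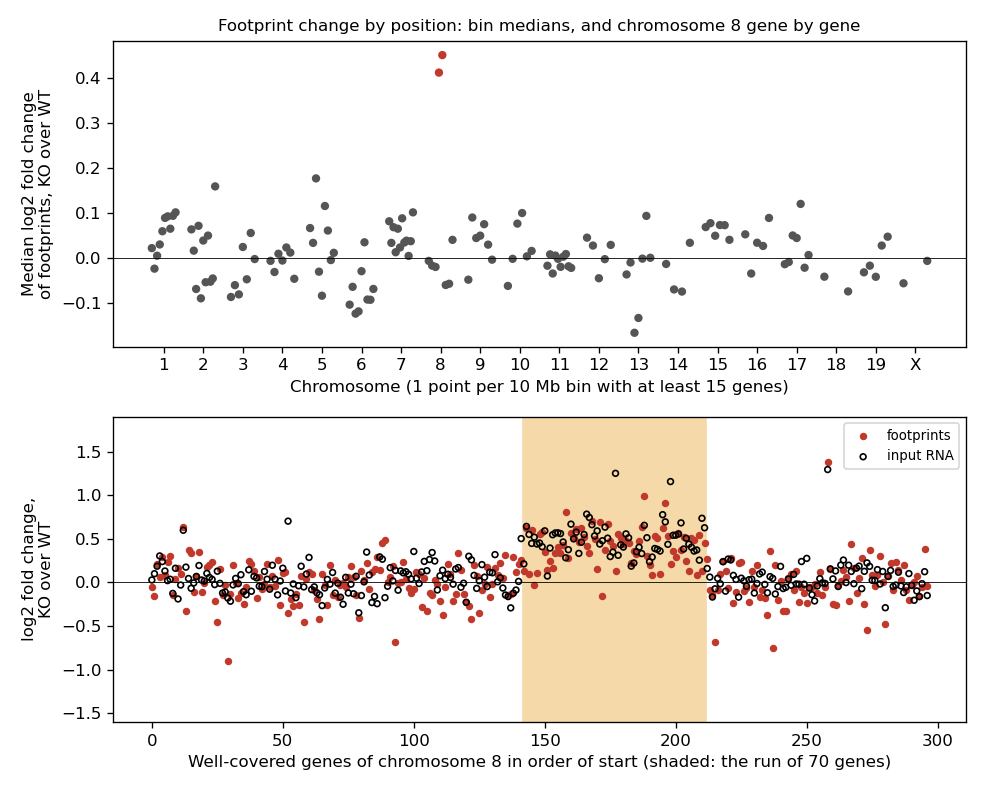
Above, the median log2 fold change of footprints (KO over WT, y axis) in each 10 Mb window, by chromosome (x axis), and below, the log2 fold change of footprints (filled) and input RNA (open) of each well-covered gene of chromosome 8 in order of position. The 2 windows at 0.41 and 0.45 stand above all others, and the shaded 70 genes from Scoc to Got2 had a footprint median of 0.44 against -0.0090 on the rest of the chromosome.

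No other chromosome held such a stretch at this scale. In windows of 10 Mb with at least 15 well-covered genes, 139 in all, the 2 highest median log2 fold changes were 0.41 and 0.45, both on chromosome 8. All others lay between -0.17 and 0.18. Chromosome 6 leaned the other way over its length. Of its 312 well-covered genes, 71 (22.8%) were lower and 21 (6.73%) higher in KO, with a median of -0.091, and 8 of its 9 windows had a negative median. Without WT replicate 1 the counts were 50 lower and 11 higher, and without WT replicate 2, 50 and 15. Input RNA of these genes had a median of -0.10, and all 9 windows were negative. Members of several gene groups named here lie on chromosome 6, among them Mthfd2, Bcat1, Mad2l1, Snrnp27, Mrps25, Emg1 and Asns, and also Gpnmb, Met and Hk2, whose footprints were higher.

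Regulators and effectors of the integrated stress response had calls in opposite directions in footprints and input RNA. Of 19 listed genes in the table, 10 were well-covered, and footprints of 6 of these were lower and of 0 higher (7 and 1 at an unadjusted p under 0.05), against 10.2% lower among all well-covered genes. Their median log2 fold change was -0.35, beside a median of 0.011 over all well-covered genes. In input RNA 9 of the same 10 genes were higher and 1 lower, with a median of 0.54. The input background was 22.6% higher and 24.1% lower among all well-covered genes. Chac1 (chr2:119351242-119354326), which cleaves glutathione, had 134 and 151 in KO libraries, against 352 and 317 in WT libraries (log2 fold change -1.23 ± 0.16 (SE), adjusted p = 3.84e-06), beside an input log2 fold change of 1.63. The pseudokinase gene Trib3, a feedback inhibitor of ATF4, had 359.9 and 469.7 in KO libraries, against 771 and 761 in WT libraries (log2 fold change -0.90 ± 0.11 (SE), adjusted p = 1.5e-06), beside 1.10 in input. For both genes each KO library was below each WT library. Atf4 had 694 and 750.3 in KO libraries, against 1026 and 1147 in WT libraries (log2 fold change -0.59 ± 0.081 (SE), adjusted p = 8.17e-06), beside 0.39 in input. The mTORC1 inhibitor gene Ddit4 had 803 and 978 in KO libraries, against 1100 and 1145 in WT libraries (log2 fold change -0.34 ± 0.083 (SE), adjusted p = 0.00603), and Eif4ebp1, a repressor of cap-dependent initiation, had 357 and 369 in KO libraries, against 459.9 and 467 in WT libraries (log2 fold change -0.35 ± 0.11 (SE), adjusted p = 0.0403). Both had higher input RNA, by 0.77 and 0.70. Without KO replicate 1 the footprint difference of Ddit4 was -0.20 (adjusted p = 0.111), and that of Eif4ebp1 did not pass without WT replicate 1 (0.168), WT replicate 2 (0.213) or KO replicate 1 (0.0878). Sesn2, a leucine sensor upstream of mTORC1, had 217 and 239 in KO libraries, against 419.6 and 322 in WT libraries (log2 fold change -0.69 ± 0.15 (SE), adjusted p = 0.00202), and its adjusted p was 0.135 without WT replicate 1. None of the 10 genes lay in the stretch of chromosome 8.

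ATF4 acts through a composite element in target promoters, and the promoters of a stress effector and of an amino acid enzyme are shown because they hold its letters. The letters TGATGNAA were searched on both strands in the 250 bases before each gene's start (RefSeq, GRCm38.p6), and 3.45% of 32851 promoters held them. Of the 10 well-covered stress response genes, 7 had a promoter entry and 1, Chac1, held the letters. Among 22 well-covered genes of amino acid synthesis, 17 matched and 2 did, Asns and Got1. Of 545 well-covered genes with lower footprints, 443 matched and 10 (2.26%) held them. A match describes letters only and is not shown to be a bound site. The bases shown lie at chr2:119351022-119351121 on the plus strand for Chac1, where the match reads on the opposite strand and begins 193 bases before the start, and at chr6:7693210-7693309 on the minus strand for Asns, where it begins 23 bases before the start. Capitals mark the match.
Chac1: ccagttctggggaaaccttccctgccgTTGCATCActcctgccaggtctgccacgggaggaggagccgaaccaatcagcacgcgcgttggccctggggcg
Asns: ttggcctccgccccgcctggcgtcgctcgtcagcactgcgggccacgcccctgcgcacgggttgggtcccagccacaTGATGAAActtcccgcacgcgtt

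Genes that supply amino acids were mixed. The footprint background for these and all other gene lists is 10.9% higher and 10.2% lower among all well-covered genes. For input counts it is 22.6% higher and 24.1% lower. Among enzymes of amino acid, one-carbon and proline synthesis, 22 of 25 were well-covered, 4 higher and 5 lower, with a median of -0.026 (input median 0.21). Mthfd2, the mitochondrial folate enzyme, had 1925 and 1758 in KO libraries, against 3281 and 3097 in WT libraries (log2 fold change -0.79 ± 0.052 (SE), adjusted p = 2.24e-11). Asns, asparagine synthetase, had 2585 and 2608 in KO libraries, against 3298 and 3349.7 in WT libraries (log2 fold change -0.36 ± 0.043 (SE), adjusted p = 1.07e-06), and Bcat1, a branched-chain aminotransferase, had 1426 and 1586 in KO libraries, against 2058 and 2088 in WT libraries (-0.46). The KO libraries of these 3 genes were all below the WT libraries, while input RNA was higher, by 0.35, 0.39 and 0.20. Without either WT library the count of lower enzymes was 3. Among amino acid transporters 11 of 16 were well-covered, 1 higher and 4 lower, with a median of -0.13, and without WT replicate 1 these counts were 0 and 2 (0 higher also without KO replicate 2). Slc7a5, the leucine exchanger of the plasma membrane, had 2471 and 2410.3 in KO libraries, against 2802 and 2858 in WT libraries (log2 fold change -0.21 ± 0.045 (SE), adjusted p = 0.00187). The aminoacyl-tRNA synthetases and their partners were 39 genes, 32 of them well-covered, with 4 higher and 7 lower (4 lower without WT replicate 1) and a median of 0.044. Seryl-tRNA synthetase Sars had 3674 and 3657 in KO libraries, against 4832 and 5000.3 in WT libraries (log2 fold change -0.42 ± 0.037 (SE), adjusted p = 4.02e-09), and tryptophanyl-tRNA synthetase Wars was higher (0.26). Farsa, the highest of the group, lies in the stretch of chromosome 8.

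Cytosolic ribosomal proteins had 33 of 58 members well-covered, 15 higher and 4 lower, against 10.9% and 10.2% of all well-covered genes, with a median of 0.15, and the counts stayed between 12 and 13 higher and 4 and 6 lower when any 1 library was left out. In input 32 of the 33 were higher, against 22.6% of all well-covered genes, with a median of 0.19. Rps10 (chr17:27630415-27635244) had 623 and 614 in KO libraries, against 227 and 287 in WT libraries (log2 fold change 1.27 ± 0.12 (SE), adjusted p = 3.04e-08), and Rps7 had 557 and 455 in KO libraries, against 206 and 239 in WT libraries (log2 fold change 1.18 ± 0.14 (SE), adjusted p = 5.15e-07). Rpl41, the shortest protein of the ribosome, had 283 and 284 in KO libraries, against 138 and 147 in WT libraries (log2 fold change 0.99 ± 0.17 (SE), adjusted p = 0.000124). All 3 genes were higher in both KO libraries by far more than the spread within a genotype. In the other direction, beside Rpl6, Rpl7a had 408 and 414 in KO libraries, against 820.2 and 754 in WT libraries (log2 fold change -0.93 ± 0.096 (SE), adjusted p = 8.14e-08) and Rps19 had 3425 and 3636 in KO libraries, against 5534 and 5476 in WT libraries (log2 fold change -0.64 ± 0.038 (SE), adjusted p = 2.67e-12). Small subunit genes had 8 of 17 higher and 2 lower with a median of 0.18, and large subunit genes 7 of 16 higher and 2 lower with a median of 0.034. Many of these genes have near-identical pseudogene copies, with which the authors' mapping may have shared or lost reads, so their values are uncertain.

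Elongation factors and other mRNAs with a 5′ terminal oligopyrimidine tract, which mTORC1 controls, had 17 of 21 members well-covered, 10 higher and 0 lower (13 and 0 at an unadjusted p under 0.05), with a median of 0.17. Eef1a1, which brings aminoacyl-tRNA to the ribosome, had 19974 and 20104 in KO libraries, against 13952 and 13693 in WT libraries (log2 fold change 0.54 ± 0.02 (SE), adjusted p = 2.36e-16). Eef2, the translocase, had 21159 and 21463 in KO libraries, against 16065 and 16045 in WT libraries (log2 fold change 0.41 ± 0.019 (SE), adjusted p = 2.8e-14). Pabpc1, the poly(A) binding protein, had 6933 and 7119 in KO libraries, against 4699 and 4911 in WT libraries (log2 fold change 0.55 ± 0.033 (SE), adjusted p = 4.59e-12). KO libraries of these genes all lay above the WT libraries. Of the 17 genes, input RNA was higher in 11 and lower in 4, with a median of 0.11, against 22.6% and 24.1% of all well-covered genes. Input was higher for Eef1a1 (0.19) and Eef2 (0.14), and that of Pabpc1 did not pass (-0.014, adjusted p = 0.422). Initiation factors split: 42 of 50 were well-covered, 8 higher and 6 lower, with a median of -0.034, and 3 lower without WT replicate 1. Eif4h, a cofactor of the helicase eIF4A, had 6462 and 6549 in KO libraries, against 9156 and 9782 in WT libraries (log2 fold change -0.54 ± 0.031 (SE), adjusted p = 1.65e-12), again with input RNA that did not pass (0.014). Eif3h, a subunit of the eIF3 scaffold, was higher (0.39). Of 46 well-covered ribosome biogenesis factors (48 in the table), 5 were higher and 4 lower, with a median of 0.014, which is close to the 10.9% and 10.2% of all well-covered genes. Nop10, of the H/ACA particles that guide pseudouridylation, had 283 and 316 in KO libraries, against 153 and 179 in WT libraries (log2 fold change 0.85 ± 0.16 (SE), adjusted p = 0.000552). Leaving out WT replicate 2 changed these biogenesis counts to 2 and 1, WT replicate 1 to 3 and 3, and KO replicate 1 to 8 and 3.

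Mitochondrial proteins are encoded in both genomes. Of the 7 genes of the mitochondrial genome in the table, 5 were well-covered, 4 of them higher and 0 lower, with a median of 0.51. In input all 5 were lower (median -0.26), against 24.1% of all well-covered genes. mt-Nd5, a complex I subunit, had 1063 and 1146 in KO libraries, against 697 and 749 in WT libraries (log2 fold change 0.61 ± 0.078 (SE), adjusted p = 2.92e-06). mt-Co1, the core of cytochrome oxidase, had 3842 and 3999.5 in KO libraries, against 2689.5 and 2823 in WT libraries (log2 fold change 0.51 ± 0.043 (SE), adjusted p = 2.02e-09). KO exceeded WT in every library of both genes. Without WT replicate 2 the count was 2, and mt-Nd1 (0.56) had an adjusted p of 0.081. Cycloheximide acts on cytosolic and not on mitochondrial ribosomes. Of the 63 well-covered nuclear-encoded subunits of oxidative phosphorylation (74 in the table), 8 were higher and 20 lower in footprints, with a median of -0.034. In input 51 of them were higher, against 22.6% of all well-covered genes, with a median of 0.19. Ndufa13 had 217 and 275 in KO libraries, against 386 and 400 in WT libraries (log2 fold change -0.68 ± 0.14 (SE), adjusted p = 0.00124), and Ndufb10 had 357 and 339.7 in KO libraries, against 521 and 536 in WT libraries (log2 fold change -0.60 ± 0.11 (SE), adjusted p = 0.000397). Both belong to complex I. The 20 lower calls became 10 without WT replicate 1, 9 without WT replicate 2 and 10 without KO replicate 1, and the 8 higher calls became 4 without WT replicate 2. Mitochondrial ribosomal proteins had 55 of 72 well-covered, 3 higher and 8 lower, with a median of -0.062. Mrps25 had 777 and 818 in KO libraries, against 1072 and 1083 in WT libraries (log2 fold change -0.43 ± 0.075 (SE), adjusted p = 0.000178). Without WT replicate 1 the counts of mitochondrial ribosomal proteins were 0 higher and 3 lower, and without WT replicate 2, 0 and 4.

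Among pigment and lineage genes limma called members higher and none lower, against 10.9% higher and 10.2% lower of all well-covered genes. Of 20 well-covered melanosome and pigment genes (25 in the table), 9 were higher and 0 lower (12 and 1 at an unadjusted p under 0.05), with a median of 0.22 (input median 0.19). With edgeR, after median centring, after quantile normalization and with all 8 libraries in 1 fit, 1 was lower. In input RNA 17 of the 20 genes were higher and 1 lower, against 22.6% and 24.1% of all well-covered genes. Tyr, the tyrosinase that starts melanin synthesis, had 5270.5 and 5152 in KO libraries, against 3948 and 4065 in WT libraries (log2 fold change 0.38 ± 0.036 (SE), adjusted p = 1.62e-08), beside an input difference of 0.10. Cd63, a tetraspanin that sorts Pmel in melanosome precursors, had 1694 and 1746 in KO libraries, against 1401 and 1366 in WT libraries (log2 fold change 0.31 ± 0.058 (SE), adjusted p = 0.000447), and its input did not pass (0.019). Of 8 well-covered lineage factors and receptors (14 in the table), 4 were higher and 0 lower, with a median of 0.19. The receptor tyrosine kinase gene Met had 10678 and 10542 in KO libraries, against 7198 and 7198 in WT libraries (log2 fold change 0.56 ± 0.026 (SE), adjusted p = 2.8e-14), beside 0.10 in input. Sox10, a neural crest transcription factor, had 3631 and 3861 in KO libraries, against 3215 and 3209 in WT libraries (log2 fold change 0.22 ± 0.041 (SE), adjusted p = 0.00051), and Mitf, the master factor of the melanocyte lineage, had 2737 and 2576 in KO libraries, against 2238 and 2324 in WT libraries (log2 fold change 0.22 ± 0.049 (SE), adjusted p = 0.00282). In all 5 of these genes the lower KO library was above the higher WT library. Input RNA of Sox10 was higher (0.20) and that of Mitf was lower (-0.10). Mlana, a melanosomal antigen, had 3345 and 3338 in KO libraries, against 3639 and 3582 in WT libraries (-0.11), and did not pass (adjusted p = 0.0671).

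In both lists of protein folding factors more members were higher than lower, beside 10.9% and 10.2% of all well-covered genes. Among ER chaperones and ER quality control genes, 38 of 43 were well-covered, 17 higher and 4 lower, with a median of 0.12, and 11 higher without WT replicate 1. Hspa5 (BiP), the main Hsp70 of the ER, had 24359 and 24552 in KO libraries, against 20554 and 20374 in WT libraries (log2 fold change 0.26 ± 0.018 (SE), adjusted p = 6.76e-11). Hyou1, its nucleotide exchange partner, had 6336 and 6460.1 in KO libraries, against 4896 and 4899 in WT libraries (log2 fold change 0.39 ± 0.032 (SE), adjusted p = 1.88e-09). Sdf2l1, a BiP cofactor, had 783 and 691 in KO libraries, against 517 and 469 in WT libraries (log2 fold change 0.58 ± 0.098 (SE), adjusted p = 0.00014). Of this group Calr and Herpud1 lie in the stretch of chromosome 8. Cytosolic chaperones had 26 of 30 well-covered, 11 higher and 1 lower, with a median of 0.12, while 6 were higher and 7 lower in input. Hsp90aa1, the inducible Hsp90, had 4379 and 4153 in KO libraries, against 3349 and 3386 in WT libraries (log2 fold change 0.34 ± 0.04 (SE), adjusted p = 6.02e-07), although its input RNA was lower (-0.21). Hsp90ab1, the constitutive form, had 34248 and 34409 in KO libraries, against 28760 and 28751 in WT libraries (log2 fold change 0.26 ± 0.015 (SE), adjusted p = 3.56e-12), with input that did not pass (0.015). The lower member was Ahsa1, which stimulates the ATPase of Hsp90, with 1503 and 1504 in KO libraries, against 2266 and 2331 in WT libraries (log2 fold change -0.61 ± 0.053 (SE), adjusted p = 4.01e-09). Dnajb1 and Dnaja2 of this group lie in the stretch of chromosome 8.

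**Figure D4:**
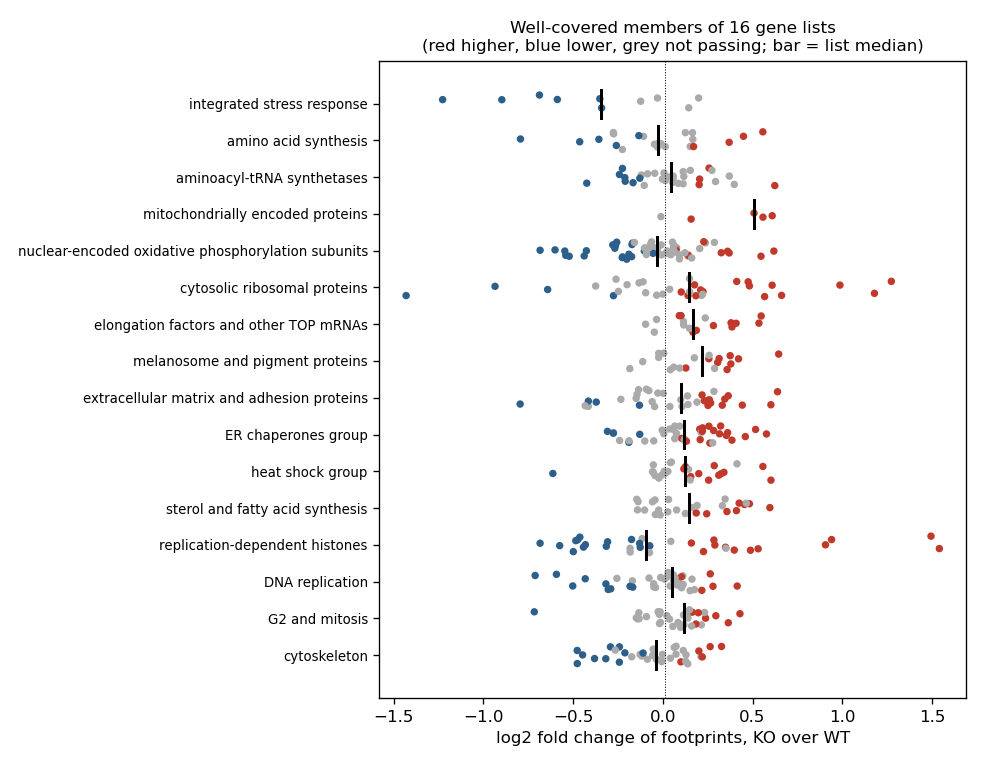
Log2 fold change of footprints (KO over WT, x axis) of every well-covered member of 16 gene lists (y axis). Points are genes (red higher, blue lower, grey not passing), short bars are list medians, and the dotted line is the median of all well-covered genes, 0.011. The list medians range from -0.35 in the integrated stress response to 0.51 in mitochondrially encoded genes.

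Replication-dependent histones, whose mRNAs end in a stem-loop in place of a poly(A) tail, had many calls in both directions. Of these 37 genes, 32 were well-covered, 12 higher and 14 lower, with a median of -0.094, against a well-covered background of 10.9% higher and 10.2% lower. With all 8 libraries in 1 fit, which gave more calls over all genes, the histone counts were 6 and 7, and with DESeq2 they were 7 and 9. The split by class was looked at after the values were known. Of 8 H2B genes 6 were higher and 1 lower, with a median of 0.72, and of 8 H4 genes 1 was higher and 5 lower, with a median of -0.24. H2A had 2 of 9 higher and 5 lower, the linker histone H1 had 1 of 4 higher and 2 lower, and H3 had 2 of 3 higher and 1 lower. Hist1h4d had 17143 and 16869 in KO libraries, against 25045 and 25597 in WT libraries (log2 fold change -0.57 ± 0.019 (SE), adjusted p = 1.79e-17). Hist1h1d had 8024 and 8413 in KO libraries, against 10921 and 11403 in WT libraries (log2 fold change -0.44 ± 0.028 (SE), adjusted p = 1.77e-11). Both were lower in each KO library, while the input RNA of Hist1h4d was higher (0.37) and that of Hist1h1d did not pass (0.31). Input levels of histones were low beside their footprints, and for the 8 H4 genes input summed to 271 and 280.2 in KO and 220.3 and 196 in WT. If the input RNA was polyadenylated, these values may not measure histone mRNAs.

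Within the H2A, H2B, H3 and H4 classes genes are near-identical in their coding sequence. How reads with several matches were placed is unknown from these sources, so single genes are uncertain and sums over a class are given beside them. Summed over the 8 H4 genes, footprints were 37634 and 37972 in KO against 49399 and 50367 in WT, a ratio of 0.758. The 4 H1 genes summed to 10393 and 10743 in KO against 13670 and 14199 in WT, also a ratio of 0.758. The sums of both classes were thus lower, by more than the spread within a genotype. Hist1h1d held most of the H1 reads. Of the other H1 genes Hist1h1e was lower (-0.50), Hist1h1c did not pass (-0.18) and Hist1h1t was higher (0.49). The 8 H2B genes summed to 36731 and 36640 in KO against 34943 and 34885 in WT, a ratio of only 1.05, as Hist2h2bb, with 27004 and 27037 in KO libraries, against 28720 and 28103 in WT libraries, held most of the reads and was slightly lower (-0.072, adjusted p = 0.00386, and 0.209 without WT replicate 1). The ratios for H2A and H3 were 0.987 and 1.08. Of 5 well-covered replication-independent histone genes (7 in the table), none was called by limma, with a median of 0.024, while edgeR called 1 higher and 1 lower, as did an unadjusted limma p under 0.05. Without KO replicate 1 limma called 1 higher and 1 lower of them, and without KO replicate 2, 0 and 1.

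H2B promoters are known for an octamer that recruits OCT1 in S phase. This class held both large increases and a slight decrease, and 3 of its promoters that hold the octamer are shown. The letters ATTTGCAT occurred within 250 bases before the start, on either strand, in 1.6% of all promoters. Of the 8 well-covered H2B genes 7 had a promoter entry and 5 held the octamer. Of 24 other well-covered replication-dependent histone genes 22 had an entry and 6 held it. All 6 were among the 9 well-covered H2A genes, so the octamer was not particular to H2B. Hist1h2bh, with the largest increase, Hist1h2bj and Hist1h2bc were not among the 5 H2B genes, for lack of the letters or of an entry. The octamer begins 30 bases before the start of Hist1h2bk (chr13:22035721-22035820) and 90 bases before that of Hist1h2bb (chr13:23746614-23746713), whose footprints were higher, and 48 bases before that of Hist2h2bb (chr3:96269580-96269679), whose footprints were slightly lower. All 3 are shown on the plus strand of GRCm38.p6, from RefSeq, with the octamer in capitals.
Hist1h2bk: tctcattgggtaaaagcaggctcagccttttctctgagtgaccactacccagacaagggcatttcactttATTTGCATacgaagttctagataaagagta
Hist1h2bb: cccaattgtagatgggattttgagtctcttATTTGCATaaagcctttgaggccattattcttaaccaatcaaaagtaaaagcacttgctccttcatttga
Hist2h2bb: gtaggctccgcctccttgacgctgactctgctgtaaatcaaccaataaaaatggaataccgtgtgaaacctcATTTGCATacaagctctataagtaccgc

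Of 43 well-covered DNA replication genes (44 in the table) 5 were higher and 9 lower, against 10.9% and 10.2% of all well-covered genes, with a median of 0.049, and 5 and 4 were lower without WT replicate 1 and WT replicate 2. Dut, which keeps uracil out of DNA, had 1088 and 1004 in KO libraries, against 1579 and 1575 in WT libraries (log2 fold change -0.59 ± 0.065 (SE), adjusted p = 2.45e-07), and Prim1, the primase, had 571 and 644 in KO libraries, against 879.6 and 839 in WT libraries (log2 fold change -0.50 ± 0.088 (SE), adjusted p = 0.000223). Input RNA of both did not pass (0.015 and -0.021). Of 35 well-covered genes of G2 and mitosis (36 in the table), 7 were higher and 1 lower in footprints, with a median of 0.12. In input 2 were higher and 15 lower, against 22.6% and 24.1% of all well-covered genes. Cenpf, of the kinetochore, had 1859.7 and 1896 in KO libraries, against 1369 and 1418 in WT libraries (log2 fold change 0.43 ± 0.057 (SE), adjusted p = 4.61e-06), and Top2a, which untangles chromosomes, had 7964 and 7934 in KO libraries, against 6708 and 6768 in WT libraries (log2 fold change 0.24 ± 0.028 (SE), adjusted p = 9.21e-07). The lower one was the checkpoint gene Mad2l1, with 488 and 508 in KO libraries, against 831 and 807 in WT libraries (log2 fold change -0.72 ± 0.09 (SE), adjusted p = 2.02e-06). Without KO replicate 1 there were 2 lower genes in this group and without KO replicate 2 there were 3. Genes of p53 and the BCL2 family had 8 of 21 well-covered, 1 higher and 2 lower, with a median of -0.091 (1 lower without WT replicate 2). Bax, which opens the outer mitochondrial membrane in apoptosis, had 663 and 635 in KO libraries, against 1161 and 1092 in WT libraries (log2 fold change -0.79 ± 0.078 (SE), adjusted p = 3.85e-08), although its input was higher (0.24). Mcl1, which opposes it, had 1571 and 1663 in KO libraries, against 1259 and 1216 in WT libraries (log2 fold change 0.39 ± 0.062 (SE), adjusted p = 7.2e-05).

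In metabolism, sterol and fatty acid synthesis had 26 of 37 well-covered, 8 higher and 0 lower (1 lower without KO replicate 1), with a median of 0.14. Cyp51, a lanosterol demethylase, had 1479.8 and 1433 in KO libraries, against 1111 and 1058 in WT libraries (log2 fold change 0.43 ± 0.065 (SE), adjusted p = 3.63e-05). Dhcr7, the last enzyme of cholesterol synthesis, had 1323 and 1244 in KO libraries, against 937 and 993 in WT libraries (log2 fold change 0.41 ± 0.07 (SE), adjusted p = 0.000152). Input of Cyp51 did not pass (0.0068, adjusted p = 0.91), whereas that of Dhcr7 was higher (0.26). Glycolysis and hypoxia targets had 22 of 31 well-covered, 7 higher and 3 lower, with a median of 0.094 and 0 lower without WT replicate 2. Hk2, hexokinase 2, had 3759 and 4103 in KO libraries, against 2685 and 2823 in WT libraries (log2 fold change 0.51 ± 0.046 (SE), adjusted p = 6.39e-09) with input RNA that did not pass (-0.027, adjusted p = 0.467). Antioxidant enzymes had 31 of 38 well-covered, 3 higher and 2 lower, with a median of -0.051, and 1 higher without either WT library (1 lower without WT replicate 1). Sod1, the cytosolic superoxide dismutase, had 866 and 889 in KO libraries, against 1161 and 1140.3 in WT libraries (log2 fold change -0.39 ± 0.071 (SE), adjusted p = 0.00037), while the highest, Prdx2, lies in the stretch of chromosome 8. Iron genes and metallothioneins had 10 of 16 well-covered, 3 higher and 1 lower, with a median of 0.17, and 2 of the 3 are the metallothioneins of the same stretch. Without KO replicate 2 the counts were 4 and 0, and without WT replicate 1 the higher count was 2. Lysosomal genes had 43 of 47 well-covered, 9 higher and 3 lower, with a median of 0.037 and 5 higher without WT replicate 2. The protease gene Ctsz had 1631 and 1613 in KO libraries, against 2213 and 2223 in WT libraries (log2 fold change -0.45 ± 0.052 (SE), adjusted p = 5.92e-07).

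At the cell surface, extracellular matrix and adhesion genes had 35 of 74 well-covered, 12 higher and 4 lower, with a median of 0.10. The higher count was 7 without WT replicate 1 and 8 without WT replicate 2, where the lower count was 2. Col4a2, a basement membrane collagen, had 406 and 464 in KO libraries, against 271 and 285 in WT libraries (log2 fold change 0.64 ± 0.13 (SE), adjusted p = 0.000867), and the secreted protease gene Adamts1 had 603 and 632 in KO libraries, against 1117 and 1028 in WT libraries (log2 fold change -0.79 ± 0.081 (SE), adjusted p = 7.39e-08). Cytoskeleton genes had 37 of 51 well-covered, 5 higher and 10 lower, with a median of -0.037. Pfn1, an actin monomer binding protein, had 7596 and 8271 in KO libraries, against 9913 and 10734 in WT libraries (log2 fold change -0.38 ± 0.035 (SE), adjusted p = 1.26e-08), and the tubulin gene Tubb3 had 988 and 889 in KO libraries, against 1306 and 1304 in WT libraries (log2 fold change -0.48 ± 0.071 (SE), adjusted p = 2.81e-05). Actb, cytoplasmic actin, had 28766 and 28448 in KO libraries, against 28258 and 29158 in WT libraries and was close to level (-0.0049, adjusted p = 0.9).

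Proteasome, splicing and transport genes had calls in both directions. Proteasome subunits had 32 of 35 well-covered, 4 higher and 9 lower, with a median of -0.041. Psmb7, a catalytic subunit, had 1488 and 1468 in KO libraries, against 2208 and 1945 in WT libraries (log2 fold change -0.49 ± 0.06 (SE), adjusted p = 1.71e-06), and another subunit of its ring, Psmb3, had 863 and 803 in KO libraries, against 632 and 623 in WT libraries (log2 fold change 0.41 ± 0.085 (SE), adjusted p = 0.00157). Splicing factors and hnRNPs had 61 of 76 well-covered, 11 higher and 13 lower, with a median of -0.014. The tri-snRNP gene Snrnp27 had 466 and 496 in KO libraries, against 852 and 786 in WT libraries (log2 fold change -0.77 ± 0.092 (SE), adjusted p = 1.12e-06), and Prpf3, of the same particle, had 511 and 597 in KO libraries, against 375 and 407 in WT libraries (log2 fold change 0.50 ± 0.11 (SE), adjusted p = 0.00294). Without WT replicate 1 there were 8 higher and 6 lower splicing genes, and without WT replicate 2, 7 and 8. Nuclear transport and pore genes had 46 of 48 well-covered, 7 higher and 5 lower, with a median of 0.033, and Tnpo2 and Nup93 among the higher ones lie in the stretch of chromosome 8. The higher count was 4 without WT replicate 1, and the lower count was 3 without WT replicate 2 and 3 without KO replicate 1.

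The list of rRNA-modifying enzymes and of m6A enzymes and readers had calls near the background. Of its 19 well-covered genes (27 in the table) 2 were higher and 1 lower, against 10.9% and 10.2% of all well-covered genes, with a median of 0.042. Fto, an m6A demethylase of the chromosome 8 stretch, had 1246 and 1385 in KO libraries, against 1056 and 1078 in WT libraries (log2 fold change 0.30 ± 0.069 (SE), adjusted p = 0.00397), Hnrnpc had 1439.8 and 1436 in KO libraries, against 1221 and 1292 in WT libraries (log2 fold change 0.19 ± 0.063 (SE), adjusted p = 0.041), and Emg1, an 18S rRNA methyltransferase that does not place m6A, had 788 and 895 in KO libraries, against 1041 and 995 in WT libraries (log2 fold change -0.28 ± 0.079 (SE), adjusted p = 0.0203). Of these calls, Fto was lost without KO replicate 2 (0.0556), Emg1 without WT replicate 1 (0.154) or KO replicate 1 (0.17), and Hnrnpc without any 1 of the 4 libraries (adjusted p between 0.0661 and 0.304). The higher count of this list was 1 without WT replicate 1, WT replicate 2 or KO replicate 1, and 0 without KO replicate 2, and the lower count was 0 without WT replicate 1 or KO replicate 1. Immediate early and ID genes had 7 of 22 well-covered, 1 higher and 2 lower, with a median of 0.12. Dusp6, a phosphatase of ERK, had 831 and 883 in KO libraries, against 1378 and 1315 in WT libraries (log2 fold change -0.65 ± 0.071 (SE), adjusted p = 1.88e-07), and Id2 had 994 and 960 in KO libraries, against 767 and 722 in WT libraries (log2 fold change 0.39 ± 0.078 (SE), adjusted p = 0.00101). Without either WT library the lower count of immediate early genes was 1, and without KO replicate 1 the higher count was 2. Interferon and antigen presentation genes had 8 of 24 well-covered, 1 higher and 0 lower, with a median of -0.018, and the 1 was B2m (0.30), the light chain of MHC class I. Of the 4 well-covered genes of polyamine synthesis (9 in the table), limma, edgeR and DESeq2 each called 0, and 0 had an unadjusted limma p under 0.05. Their median was -0.067.

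Footprint differences were set beside those of input RNA. Over the 5348 well-covered genes the correlation across genes of the 2 log2 fold changes was r = 0.22, given as a description, since genes are not independent and the cells behind both kinds of library may be shared. In input RNA, 1211 well-covered genes (22.6%) were higher and 1287 (24.1%) lower. Of the 582 genes with higher footprints, input was higher in 288, lower in 102 and not called in 192. Of the 545 with lower footprints, input was higher in 116, lower in 169 and not called in 260. The sign was shared by 695 of the 1127 called genes. The difference between footprints and input of a gene was not tested here.

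**Figure D5:**
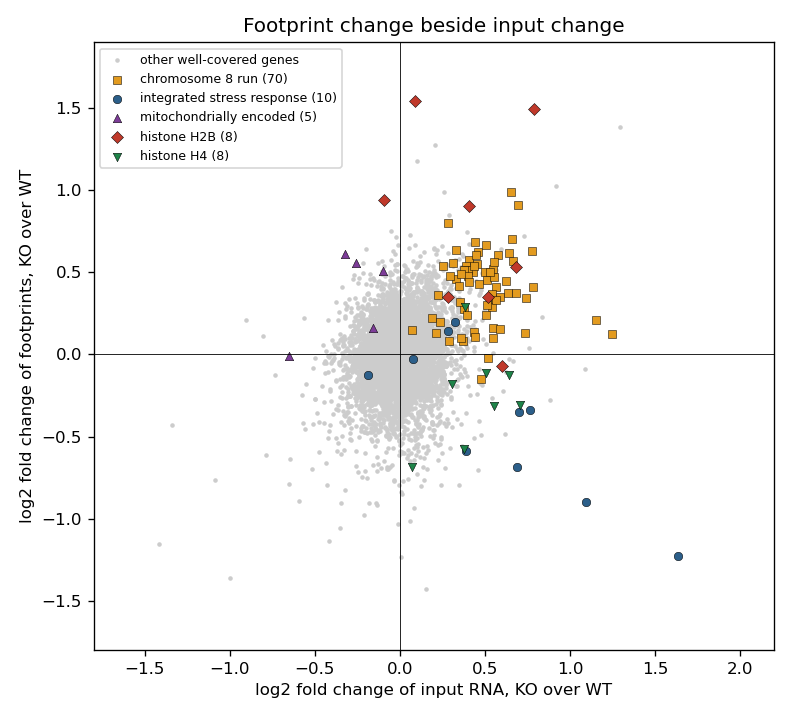
Log2 fold change of footprints (KO over WT, y axis) against that of input RNA (KO over WT, x axis) for well-covered genes, 1 point a gene, with genes of the integrated stress response, the mitochondrial genome, histones H2B and H4 and the chromosome 8 stretch marked. Across genes r was 0.22, stress response genes lie to the right and below (medians 0.54 in input and -0.35 in footprints), and mitochondrially encoded genes lie to the left and above (medians -0.26 and 0.51).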

How the data were processed

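Footprints and input RNA were measured in 8 libraries of B16 cells, 2 per genotype and kind, and the 4 footprint libraries were compared. The authors deposited 1 table of normalized read counts (unit signal), 1 row a gene. Per the submitters' processing notes, the tool was Bowtie and the build mm10. What counted the reads, on which annotation and strand, and what was done with reads of several matches is not given in the sources used here. Per the file headers, the same table carries log2 changes of translational efficiency and their p-values, computed by the authors, and these were not used. From the values, each library's values are multiples of a fixed step, the worth of 1 read, 2.86 and 2.95 in the KO and 2.12 and 2.30 in the WT footprint libraries, and 100% of values came out whole. The whole reads recovered in this way set the depth and fed the count tests, which are alternatives.

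KO footprints were tested over WT footprints with limma 3.58.1 (R 4.3.3) with a variance trend, on values taken to log2 after adding a pseudocount of 1, in genes averaging at least 1, 2 against 2, two-sided, with Benjamini-Hochberg adjustment over all genes and a threshold of 0.05. A fold change on that scale understates the change of low genes. edgeR had been planned for raw counts, and limma was used since the table holds normalized values. edgeR 4.0.16 and DESeq2 1.42.0 were run on the recovered reads. DESeq2 gave an adjusted p to 5184 genes only. With 2 against 2 libraries an exact permutation test of 1 gene cannot go below p = 0.333. Of the fits, only limma with the trend was tested on simulated data, whose spread was set close to counting noise.

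The members and the 34 gene lists were chosen with earlier results of these data known. Genes were named by a rule: Mettl5, the 12 highest and 12 lowest called log2 fold changes among well-covered genes, the 6 with the highest mean and up to 3 called members of each list. The 12 at each end had to have libraries that do not overlap between genotypes, and predicted genes were skipped. A further 26 genes (Atf4, Ddit4, Eif4ebp1, Asns and others) were chosen after their values were seen. Positions and promoters are from RefSeq on GRCm38.p6, the assembly mm10 stands for, and 5336 of the 5348 well-covered genes (99.8%) could be placed. Trmt112 was not analysed here, and results of some genes the rule names are not reported here. Replicate numbers did not pair the libraries (see the closing section).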

Additional observations from a re-analysis of the deposited data

How the results depend on the processing

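The direction of nearly all named genes held, and the number of calls did not. In all 1127 called well-covered genes the libraries do not overlap between genotypes, so leaving out 1 library could not turn a sign. The other fits used the same footprint reads, so a direction that held is no separate evidence. Over all tested genes 1309 passed, against 0 by limma without the variance trend, 2313 with all 8 libraries in 1 fit, 460 by DESeq2, 592 after quantile normalization, and 788 to 1391 when 1 library was left out. For well-covered genes with higher footprints the count was 582, against 0 without the trend, 883 with all 8 libraries, 236 by DESeq2, 269 after quantile normalization, and 385 to 577 when 1 library was left out. For those with lower footprints it was 545, against 0 without the trend, 224 by DESeq2, 287 after quantile normalization, and 329 to 576 when 1 library was left out. The cause of these differences was not tested, except that DESeq2 could call only genes to which it gave an adjusted p. Other pseudocounts, filters, edgeR and centring on the median kept all 3 counts within 1.5 times. Centring moved all values by -0.013 and gave 535 higher and 600 lower.

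Of the 116 genes named by rule, 110 lost the call without the trend and 26 by DESeq2. After quantile normalization 26 lost the call with the sign kept. Gpnmb and Dct, whose differences became exactly 0, lost it as well. Signs turned for Mettl5 (-0.029 without WT replicate 1, up to 0.27 without WT replicate 2), Dcaf6 (-0.0014 without WT replicate 1 and -0.23 without KO replicate 1, up to 0.26 without KO replicate 2), Traf6 (-0.00074 after centring, -0.0096 without WT replicate 2 and -0.16 without KO replicate 1, up to 0.19 without KO replicate 2) and Pank1 (-0.021 without WT replicate 1, up to 0.21 without WT replicate 2), none of which passed the test, and Gpnmb, Dct and Pmel were at 0 after quantile normalization. Of 68 counts of list members called higher or lower, DESeq2 made 40 smaller by over 1.5 times and quantile normalization 31, while all 8 libraries in 1 fit made 16 larger and 2 smaller (both of the replication-dependent histones). A replicate block gave 1548 calls over all genes and 679 higher and 623 lower well-covered genes, but same-numbered libraries did not deviate together (r = -0.013 across genes), so the numbers are not taken as pairs. Depth limits genes under a mean of 200 most: their median standard error was 0.30 on the log2 scale, against 0.10 in well-covered genes.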

Other observations

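Beside chromosomes 6 and 8, the split of calls varied between chromosomes. On chromosome 1, 50 of 315 well-covered genes (15.9%) were higher and 22 (6.98%) lower in KO, with a median log2 fold change of 0.054, and on chromosome 18, 5 of 133 (3.76%) were higher and 18 (13.5%) lower, with a median of -0.032. Input medians of the same genes were 0.016 and -0.042. These values are descriptions, and no test was made between chromosomes.

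Of the 1127 called well-covered genes, 342 belonged to at least 1 of the 34 lists, which together held 915 well-covered genes. Over all 5348 well-covered genes 21.1% were called. The lists were chosen with earlier results of these data known, so their share of calls is not a result about them. The remaining called genes were not grouped here.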
